A study of Mus musculus with 14 samples.

Results

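The blood of wild-type mouse embryos was compared between 2 pairs of arrays of the same group, WT arrays 1 and 2 against WT arrays 3 and 4, which are 4 of the 14 arrays of the study. The pairs follow the numbers in the array titles. The pairs were chosen by how the log2 levels of these same 4 arrays fall apart, so the differences between them are given as a description, with no test. All arrays measured RNA of peripheral blood at E12.5, in midgestation, pooled from 8 to 10 embryos of a genotype, on Affymetrix mouse arrays, as log2 levels. A difference of 1 on this scale is a 2-fold difference.

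The WT embryos (genotype Cbfb+/+, 4 arrays) came from Cbfb-MYH11 chimeras mated to C57/Bl6 females. Their littermates in that cross were Cbfb+/MYH11 (4 arrays), with the fusion gene of a human acute myeloid leukaemia in place of 1 Cbfb allele. A second cross, of Cbfb+/- parents, gave another wild-type group, called Cbfb+/+ here as in the labels (3 arrays), and Cbfb-/- embryos (3 arrays). Every embryo of the WT and Cbfb+/+ groups carries 2 normal Cbfb alleles and received no agent named in the labels. The arrays are labelled technical replicates, and which of them share a pool or an extract is not given in the sources used here, so spread between arrays may be technical.

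At this age the blood is mostly made of primitive red cells, which leave the yolk sac as nucleated erythroblasts, fill with embryonic globins, divide a limited number of times in the circulation and then mature together. A small number of macrophages, platelets and their precursors circulate beside them. Because blood is collected after the embryo is dissected, RNA of vessels, connective tissue or organs can be in a sample. In pooled tissue of this kind, fewer cells of a type and less RNA per cell cannot be told apart.

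Levels near the top of the scale came from embryonic globins on all 4 WT arrays. Hbb-bh1, an embryonic beta-like globin, had log2 levels between 13.96 and 14.02 on the 4 WT arrays. Hba-x, the embryonic alpha-like globin, had 14.29, 14.28, 14.29 and 14.29. Values so close to the highest on the arrays leave little room to show a difference. The labelled tissue thus shows its defining transcripts, and erythroid transcription factors were high as well: Gata1 had 9.73, 9.97, 9.78 and 9.72, and Klf1 had 10.66, 10.71, 10.50 and 10.55.

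Arrays of a pair were close to each other and far from the other pair. Over the 7392 genes tested, which reached a log2 level of 6 on at least 3 of the 14 arrays, the SD of the log2 difference was 0.276 between WT arrays 1 and 2 and 0.122 between WT arrays 3 and 4. Across the pairs it lay between 0.657 and 0.714. Between any 2 of the Cbfb+/+ arrays, the wild types of the other cross, it lay between 0.200 and 0.206. Genes 2-fold apart numbered 28 (0.379%) between WT arrays 1 and 2, and 0 between arrays 3 and 4. They numbered between 857 and 1162 for an array of each pair.

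**Figure D1:**
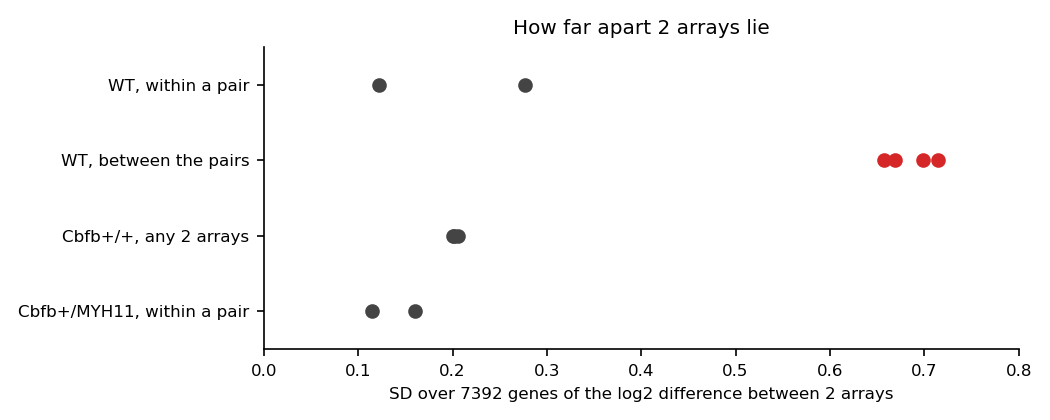
The SD, over 7392 genes, of the log2 difference between 2 arrays (horizontal axis), with 1 point per pair of arrays and 1 row per kind of pair. The 4 comparisons across the WT pairs lie between 0.657 and 0.714, to the right of all comparisons within a WT pair, within the Cbfb+/+ group or within a Cbfb+/MYH11 pair, which lie at 0.276 or below.

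A gene was counted as higher or lower on WT arrays 3 and 4 when the pair means differed at least 2-fold and the arrays of the pairs did not overlap. By this count 900 of the 7392 genes (12.2%) were higher on arrays 3 and 4 and 78 (1.06%) were lower. The median difference over all tested genes was 0.13. Of the 978 counted genes 92.0% were higher with the values as deposited. When each array was centred on its median over the tested genes, 587 were higher and 143 lower, so that 80.4% were higher. With quantile normalization 744 were higher and 132 lower, or 84.9% higher. These scalings moved the median of all genes by -0.23 and -0.17, and each difference below is best read against that shift. Of the 900 higher genes 492 were under a log2 level of 6 on both WT arrays 1 and 2, as 45 of the 78 lower genes were on arrays 3 and 4. Without the filter, 1137 of all 18193 genes (6.25%) were higher and 140 (0.77%) lower. The median level of all probe sets was 4.37 to 4.46 on the WT arrays; for a gene at or below it on a pair, the log2 difference is given without a fold, since such a level cannot be told from background in these values. Genes with a second probe set past the same filter allowed a check within the arrays: 494 of 525 other probe sets of higher genes had the same sign, as had 25 of 25 for lower genes. At 2-fold in the same direction the counts were 306 of 525 and 21 of 25. Among all 7392 tested genes 4475 had a difference above 0.

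Beginnings of promoters are shown here for the genes with the largest difference in 5 of the gene lists, among members with a single annotated start and the motif searched for. They set the proliferation genes, which hold letters known from cell cycle promoters, beside genes of macrophages, of liver or visceral endoderm and of muscle. Each is the 250 bases before the RefSeq start in GRCm38.p6, 5′ to 3′ on the gene's strand, with the motif in capitals. The Cdc6 window lies at chr11:98907901-98908150 on the plus strand and holds an E2F-type motif. The Kif2c window, at chr4:117178773-117179022 on the minus strand, holds the CHR motif. Mrc1, at chr2:14229164-14229413 on the plus strand, holds the ETS-type motif at 3 places. Afp, at chr5:90490464-90490713 on the plus strand, holds an HNF1-type motif. Actc1, at chr2:114052876-114053125 on the minus strand, holds a CArG box.
Cdc6: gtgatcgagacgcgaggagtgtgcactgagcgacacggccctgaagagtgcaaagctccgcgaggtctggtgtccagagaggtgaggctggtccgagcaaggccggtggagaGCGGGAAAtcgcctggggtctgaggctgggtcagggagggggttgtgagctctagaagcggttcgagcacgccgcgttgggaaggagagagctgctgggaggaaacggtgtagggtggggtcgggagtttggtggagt
Kif2c: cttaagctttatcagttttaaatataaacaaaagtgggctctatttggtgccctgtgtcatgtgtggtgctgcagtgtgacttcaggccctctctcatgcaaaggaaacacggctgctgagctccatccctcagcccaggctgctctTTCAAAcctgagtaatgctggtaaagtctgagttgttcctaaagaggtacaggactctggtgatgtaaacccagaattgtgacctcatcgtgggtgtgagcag
Mrc1: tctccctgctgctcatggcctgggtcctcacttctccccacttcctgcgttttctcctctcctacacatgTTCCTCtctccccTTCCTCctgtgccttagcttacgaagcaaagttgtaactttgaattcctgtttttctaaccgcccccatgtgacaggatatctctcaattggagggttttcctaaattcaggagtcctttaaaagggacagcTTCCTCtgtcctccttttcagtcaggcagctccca
Afp: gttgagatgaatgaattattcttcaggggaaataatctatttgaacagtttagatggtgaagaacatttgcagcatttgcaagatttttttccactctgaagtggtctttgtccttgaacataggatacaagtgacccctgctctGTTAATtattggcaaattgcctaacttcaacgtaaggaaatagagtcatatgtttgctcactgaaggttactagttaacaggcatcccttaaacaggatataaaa
Actc1: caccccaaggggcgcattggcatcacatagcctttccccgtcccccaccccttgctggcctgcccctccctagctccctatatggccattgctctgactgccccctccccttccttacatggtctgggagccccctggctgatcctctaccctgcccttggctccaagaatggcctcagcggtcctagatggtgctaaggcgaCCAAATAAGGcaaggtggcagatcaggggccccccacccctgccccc

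The motifs were searched on both strands, and a match describes letters in a window, not a bound site. An E2F motif (TTTCCCGC, TTTGGCGC, TTTCGCGC or TTTGCCGC) stood in 25% of the 36 windows of the replication list and in 1.86% of all 32851 windows. The CHR letters TTTGAA stood in 42.5% of the 40 windows of the mitosis list against 16.0% of all, and CCAAT in 75% of them against 33.8%. ETS letters GAGGAA stood in 51.7% of 29 windows of the macrophage list and 48.3% of 29 of the megakaryocyte and platelet list, against 23.3% of all. The HNF1-type letters GTTAAT stood in 33.3% of 36 windows of the liver list against 6.43% of all, and the CArG box in 14.8% of 27 muscle windows against 1.47%. Among the windows of all genes higher on WT arrays 3 and 4, 5.98% of 903 held an E2F motif, beside 3.52% of 7763 windows of the tested genes. Among windows of the lower genes, 39.0% of 77 held GAGGAA, beside 21.3% of those of the tested genes. The CHR letters stood in 11.5% of the higher windows and 18.2% of the lower, beside 10.6% of the tested. CCAAT stood in 38.6% and 27.3%, beside 35.1%, and GTTAAT in 2.88% and 6.49%, beside 3.76%. The CArG box stood in 1.11% of the higher windows and 2 of the 77 lower, beside 1.24%. GAGGAA stood in 22.6% of the higher windows and an E2F motif in 1 of the 77 lower. The list shares above can also be read against these shares of the tested genes.

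Genes of DNA replication were higher on WT arrays 3 and 4. Of 33 tested members 21 were counted as higher and 0 as lower, with a median difference of 1.24, beside 12.2% higher and a median of 0.13 for all genes. The MCM proteins form the helicase that opens DNA at origins. Mcm7 had log2 levels of 6.68, 7.17, 9.04 and 8.99 on WT arrays 1 to 4, a 4.24-fold difference of the pair means. Both arrays of the second pair lay above both of the first, and the Cbfb+/+ arrays lay between them at 7.94 ± 0.015 (SD, n = 3). Mcm4, Mcm5 and Mcm6 differed by 2.01, 1.89 and 1.92 on the log2 scale. Cdc6, which loads the helicase, had 3.45, 4.44, 6.28 and 6.16. Dut, which keeps uracil out of DNA by cleaving dUTP, had the largest difference of the list at 2.57, with levels of 4.45, 4.82, 7.17 and 7.24. Pcna, the sliding clamp of the polymerases, had 8.83, 9.19, 10.35 and 10.33. At the other end of the list Orc1 differed by -0.13, Fen1 by 0.019 and E2f1 by 0.073, so members did not differ by a common amount.

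Mitosis genes followed the same order of arrays. Of 40 tested members 20 were counted as higher and 0 as lower (median difference 1.01), though 11 when all probe sets of a gene were averaged. Bub1, a kinase of the spindle checkpoint, had log2 levels of 4.45, 4.31, 6.88 and 6.92, and Aurkb, the kinase of the chromosomal passenger complex, had 4.36, 4.83, 6.89 and 6.82. Kif2c, a kinesin that frees misattached microtubules, had 4.66, 4.87, 6.98 and 6.95. Top2a, which untangles sister DNA, differed by 1.93. Mki67, the usual marker of cycling cells, was much closer between the pairs, with 9.36, 9.55, 9.84 and 9.81. Ube2c and Pttg1, which act at the end of mitosis, differed by -0.35 and -0.20. Mitosis genes thus ranged from 0 or below to over 2 on the log2 scale.

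In the list of G1 control and cell cycle exit, 5 of 19 tested genes were counted as higher and 0 as lower. They were Ccnd2, Cdkn1c, Cdk4, Rbl1 and Cdk6. Ccnd2, a D-type cyclin, had log2 levels of 6.24, 6.46, 9.22 and 9.31, a 7.56-fold difference, and its partner kinase Cdk4 had 6.56, 6.88, 8.83 and 8.84. Cdkn1c, an inhibitor of such kinases expressed from the maternal allele, had 6.47 and 6.72 on arrays 1 and 2 and a mean of 8.90 on arrays 3 and 4. The inhibitor Cdkn1b differed by -0.78 and Cdkn1a by -0.13. The median of this list was 0.17 as deposited and -0.059 and -0.063 with quantile normalization and centring, so no common direction is given for it.

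Ribosome biogenesis genes, whose products make and assemble ribosomes in the nucleolus, all had a positive difference: 24 of 24 lay above 0, with 10 counted as higher and a median of 0.94. Npm1, an abundant nucleolar chaperone, had log2 levels of 7.47, 7.97, 10.04 and 10.11. Rrs1, which joins the large subunit during its assembly, had 4.95, 5.23, 7.34 and 7.23, and Nip7 had 4.57, 5.46, 7.05 and 6.87. Fbl, the methyltransferase that marks ribosomal RNA, differed by 1.64. Nop2 and Myc, by contrast, differed by 0.0078 and 0.050.

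Red cell genes differed little. None of the 17 genes of heme synthesis and iron, the 19 of the red cell membrane and the 26 of late erythroid maturation was counted as higher or lower, with median differences of -0.10, -0.23 and -0.23. Alas2, which starts heme synthesis in red cells, and Slc4a1, the anion exchanger of the membrane, differed by -0.10 and -0.23. The membrane list had 1 of 19 members above 0. With arrays centred on their medians these 3 medians were -0.33, -0.46 and -0.46, and 1 late erythroid gene was then counted as lower. The 22 erythroid regulators had a median of -0.17. Id1, an inhibitor of helix-loop-helix factors, was the 1 member counted as higher, with 5.49, 5.58, 6.80 and 6.70. Gfi1b, a repressor needed for red cells and platelets, stood at the other end with 9.31, 9.47, 8.68 and 8.55. Hbb-b2, an adult-type beta globin, had 11.70, 11.95, 12.07 and 12.27, a difference of 0.34 that became -0.061 with the mean of its probe sets, so no direction is given.

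Macrophage transcripts were lower on WT arrays 3 and 4. Of 21 tested members 16 were counted as lower and 0 as higher (median -1.60), beside 1.06% lower among all genes. Mrc1, the mannose receptor of tissue and yolk sac macrophages, had log2 levels of 9.21, 9.43, 6.19 and 6.17, an 8.79-fold difference, with Cbfb+/+ between the pairs at 7.59 ± 0.094 (SD, n = 3). Csf1r, the receptor for the growth factor CSF1, had 9.74, 9.85, 7.74 and 7.53. C1qa, a subunit of complement C1q, had 6.79, 6.90, 4.55 and 4.59, and C1qc had 7.49, 7.91, 5.76 and 5.47. Outside the list, Ms4a6b and Ms4a6d, membrane proteins of the MS4A family, had 6.87, 7.25, 4.18 and 3.87, and 6.19, 6.47, 4.08 and 4.03. Every tested member of the list had a difference below 0, from -3.14 for Mrc1 to -0.57 for Ctsb. When only genes with a mean of at least 6 over the 14 arrays are kept, 8 members and 37 of all genes are lower. This filter changes which members are kept, so the 8 are not out of 21. Without any filter 20 of 32 members with a probe set were lower, beside 0.77% of all genes.

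Megakaryocyte and platelet transcripts were lower as well, in 14 of 21 tested members, with 0 higher and a median of -1.27. With the filter on the mean of all arrays, which changes the members kept, 9 were lower, as were 37 of all genes. Without any filter 16 of 32 members with a probe set were lower, beside 0.77% of all genes. Ppbp and Pf4, chemokines stored in platelet granules, had log2 levels of 9.26, 9.37, 7.11 and 6.99, and 10.36, 10.64, 8.87 and 8.92. F13a1, the A chain of clotting factor XIII, which macrophages also make, had 9.18, 9.37, 6.32 and 6.30, a 7.78-fold difference. Thbs1, a platelet adhesion protein, had 7.90, 8.10, 6.05 and 5.91. The receptor chains Itgb3 and Gp1bb had 7.54, 7.67, 5.57 and 5.70, and 7.27, 7.62, 5.51 and 5.43. Tubb1, the platelet tubulin, differed by -0.93 and the contractile light chain gene Myl9 by 0.53. Pf4 is in both the macrophage and the platelet list.

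Other blood lineages gave few counted genes. Mpo, an enzyme of granule-bearing myeloid cells, had log2 levels of 6.92, 6.77, 6.90 and 6.84, and its small difference changed sign with either rescaling. The 7 tested mast cell and basophil genes gave 0 higher and 0 lower, with Csf2rb, the shared receptor chain for IL-3, GM-CSF and IL-5, at 7.41, 7.52, 7.38 and 7.31. Among 11 tested stem and progenitor genes the count was again 0 and 0. Without the filter 3 of 22 (Kit, Cd34 and Meis1) were higher, beside 6.25% of all genes. Gata2 had 6.79, 6.80, 6.13 and 6.26, Runx1 had 6.77, 6.85, 6.17 and 6.14, and Spi1 had 5.84, 5.95, 5.27 and 5.08, so in each of these the pairs did not overlap but stayed within 2-fold. Kit, the stem cell factor receptor, was under the filter, with 4.71, 4.49, 5.64 and 5.66, and so was Cd34 with 4.21, 4.22, 5.08 and 5.41. Ptprc, which encodes the leukocyte surface antigen CD45, was also under it, with 5.70, 6.39, 4.37 and 4.37, the same order as the macrophage genes.

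**Figure D2:**
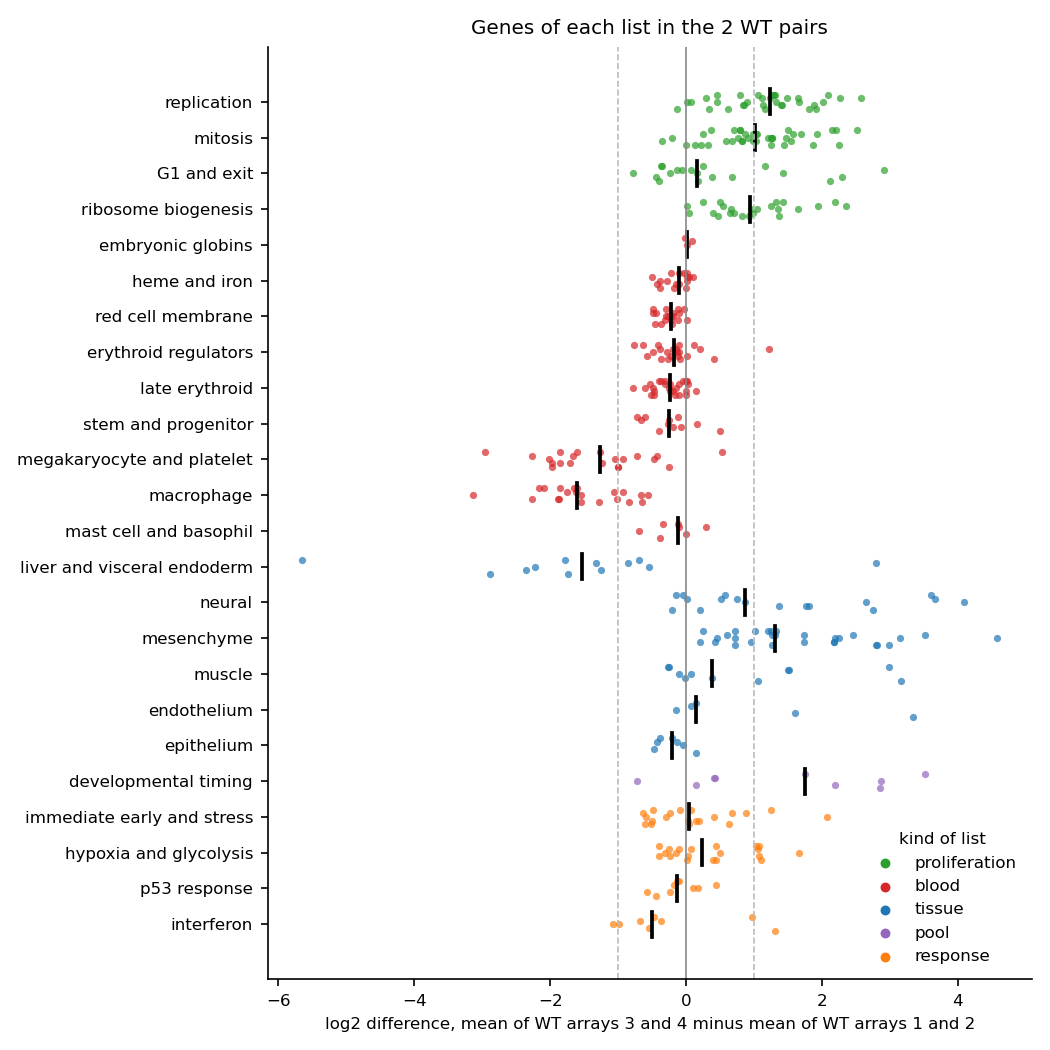
Differences of WT arrays 3 and 4 minus WT arrays 1 and 2 (log2, horizontal axis) for the tested genes of 24 lists, with 1 point per gene, colours for the kind of list and a black bar at the list's median. Dashed lines mark 2-fold. Replication and mitosis lie mainly right of 0 with medians of 1.24 and 1.01, macrophage and platelet lists left of it at -1.60 and -1.27, and red cell lists close to 0.

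Transcripts of liver and visceral endoderm were lower on WT arrays 3 and 4. Afp, the alpha-fetoprotein of yolk sac and fetal liver, had log2 levels of 11.97, 11.86, 6.33 and 6.20, a 50.1-fold difference and the largest of all tested genes. It was 10.42 ± 0.0018 (SD, n = 3) in Cbfb+/+. Of 12 tested members 8 were counted as lower, with a median of -1.53. With the filter on the mean of all arrays, which changes the members kept, 4 were lower, as were 37 of all genes. Over the 37 members with a probe set, filtered or not, 13 were lower and 1 higher, beside 0.77% and 6.25% of all genes without the filter. Ttr, the thyroxine carrier transthyretin, had 8.90, 9.06, 6.75 and 6.75, and Apoa1, the main protein of HDL, had 8.06, 8.62, 5.84 and 6.12. Cubn, a receptor of the absorptive endoderm of the yolk sac, had 6.23, 6.88, 3.66 and 3.68. Albumin (Alb) was lower in level and in difference, with 6.44, 6.19, 4.88 and 5.09. Dlk1, which fetal liver shares with mesenchyme, was the 1 member counted as higher, with 5.16, 5.88, 8.23 and 8.39.

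Prap1, a secreted protein of gut and other epithelia, and Maob, monoamine oxidase B, shared the drop between the pairs without belonging to a list. Prap1 had log2 levels of 9.54, 9.61, 6.31 and 6.12 and Maob 7.01, 7.26, 3.53 and 3.58. In Cbfb+/+ they were 5.88 ± 0.053 and 4.19 ± 0.48 (SD, n = 3), which is below WT arrays 3 and 4 for Prap1 and between the pairs for Maob. Rhox5, an X-linked homeobox gene of extraembryonic tissue, had 6.33, 6.50, 4.74 and 4.79.

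Mesenchyme genes were higher on WT arrays 3 and 4. Of 29 tested members 20 were counted as higher and 0 as lower, and all 29 differences were above 0, with a median of 1.31. Cdh11, the cadherin of mesenchymal cells, had log2 levels of 3.91, 3.49, 8.32 and 8.25, a difference of 4.58 from levels under the array median. Col3a1, a fibrillar collagen, had 7.31, 7.79, 10.78 and 10.63. Col1a1, the main collagen of connective tissue, had a smaller difference, with 6.76, 7.12, 8.22 and 8.15. Both collagens are well above 6 on all 4 WT arrays, and the Cbfb+/+ arrays had 8.11 ± 0.021 and 7.74 ± 0.088 (SD, n = 3). Pdgfra, a receptor that marks mesenchyme, differed by 2.26.

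Neural genes showed a mixed picture, with 8 of 17 tested genes higher, 0 lower and a median of 0.86. Over all 32 members with a probe set, 9 were higher and 0 lower, beside 6.25% and 0.77% of all genes without the filter. The median of the 32 was 0.23. Nnat, an imprinted gene of developing brain, had log2 levels of 4.49, 4.36, 8.55 and 8.49, Tubb2b, a neuronal tubulin, had 3.06, 3.98, 7.15 and 7.11, and Cpe, a peptide-processing enzyme, had 4.12, 4.18, 7.90 and 7.73. Sox2, the factor that defines neural progenitors, was near the lowest levels on all 4 arrays, with 2.83, 2.16, 3.18 and 3.32. Hes5 and Neurog2, other genes of neural progenitors, differed by -0.14 and -0.21. Fabp7, a lipid-binding protein of radial glia, had 3.51, 3.68, 5.41 and 5.40, and Zic1, a factor of the dorsal neural tube, had 2.98, 2.95, 5.80 and 5.64, so genes of early neural cells did not all behave alike.

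Contractile genes of muscle were counted as higher in 5 of 11 tested members and in 13 of all 28 with a probe set, with 0 lower in either, beside 6.25% higher among all genes without the filter. The tested count was 3 with probe set means, and the median of 0.38 became 0.16 with quantile normalization and 0.15 with centring. Actc1, cardiac actin, had log2 levels of 6.54, 6.75, 9.83 and 9.79, and Acta2, smooth muscle actin, had 7.51, 6.98, 10.27 and 10.21. The cardiac genes Myl7, Myh6, Tnnc1 and Nppa did not pass the filter. Myl7, the light chain of atrial muscle, had 5.01, 4.95, 8.14 and 7.94, and Myh6, a heavy chain of heart muscle, had 3.54, 3.65, 6.37 and 6.28. Tnnc1 had 4.77, 4.65, 6.85 and 6.77, and Nppa, the atrial natriuretic peptide, had 3.66, 3.42, 5.81 and 5.88. Myh7, the other cardiac heavy chain, differed by -0.56 and Nkx2-5, a cardiac factor, by -0.10. In a heart list added after these values were seen, 6 of 22 members with a probe set were higher and 0 lower. Of its 3 tested members 1 was higher, and the median of 0.14 became -0.018 with quantile normalization and -0.093 with centring.

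Endothelial, cartilage and epithelial genes were mostly below the filter. Of 5 tested endothelial genes 2 were higher (list median 0.15, and -0.10 and -0.081 with quantile normalization and centring): Aplnr, the apelin receptor, with log2 levels of 3.86, 4.27, 7.41 and 7.40, and Ramp2, a co-receptor of vessels, with 5.38, 5.57, 7.28 and 6.88. Cdh5, the cadherin that defines endothelium, did not pass, with 4.66, 4.34, 5.11 and 4.92. None of 7 tested epithelial genes was counted, and the keratin Krt8 had 7.60, 7.82, 7.37 and 7.31.

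The median levels of the lists on each array are given side by side. Over all members with a probe set, the mesenchyme list had medians of 5.44, 5.72, 7.35 and 7.20 on WT arrays 1 to 4, and the replication list 6.05, 6.15, 7.12 and 7.04. The platelet list had 7.20, 7.40, 5.80 and 5.80, the macrophage list 6.71, 6.94, 5.71 and 5.68, and the liver list 5.28, 5.39, 4.54 and 4.33. Late erythroid genes had 10.99, 11.17, 10.79 and 10.79. The tissue lists therefore differ between the same arrays as the proliferation genes, and their part in the differences of those genes was not tested. With only the WT pairs to compare, lists that differ between them must move together or in opposite directions. That alone does not link their transcripts. The sources used here do not say how many cells of any type were in a pool.

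**Figure D3:**
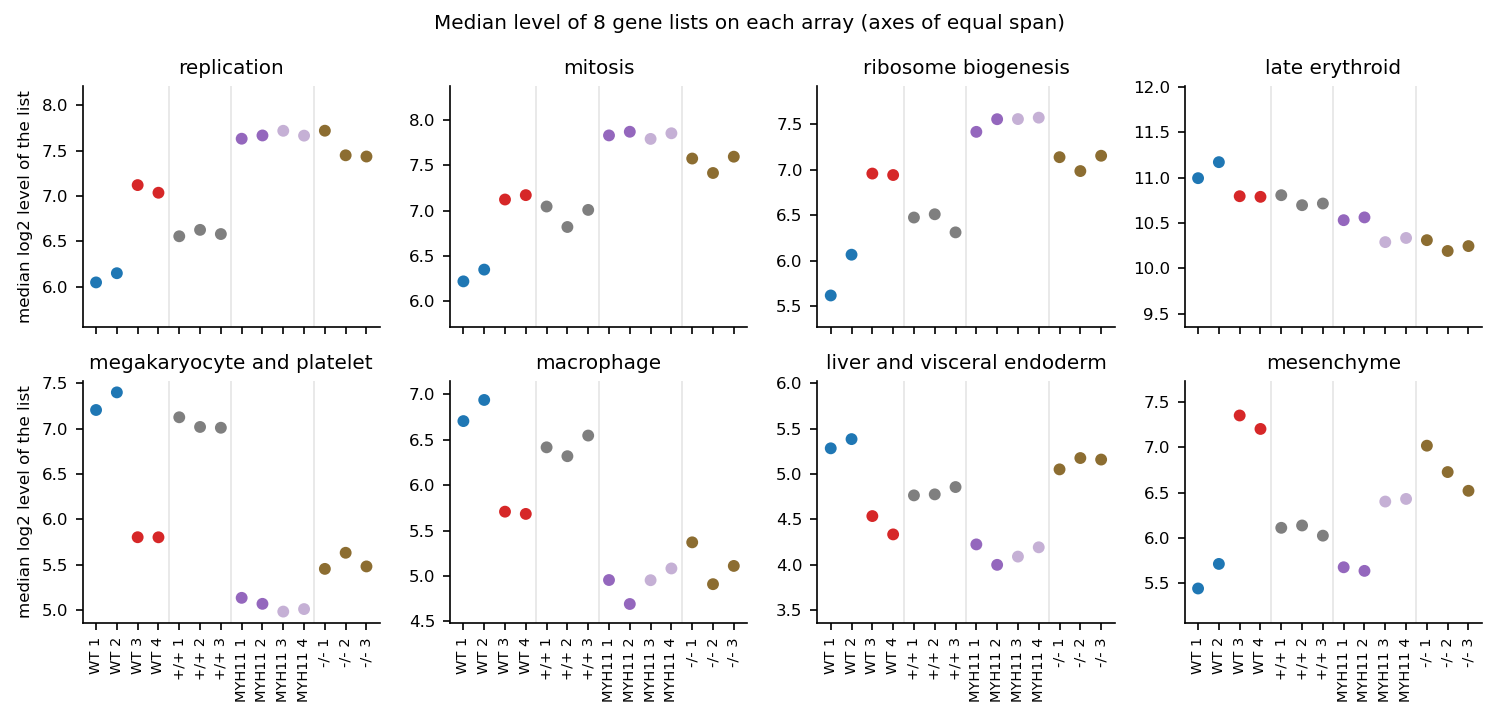
Median log2 level of 8 gene lists (vertical axes of equal span) on the 14 arrays, over all members with a probe set; WT arrays 1 and 2 are blue, WT arrays 3 and 4 red, Cbfb+/+ grey, Cbfb+/MYH11 purple (arrays 1 and 2 dark, 3 and 4 light) and Cbfb-/- brown. The platelet list stands at 7.20 and 7.40 on WT arrays 1 and 2 and at 5.80 on both WT arrays 3 and 4, while replication stands at 6.05 and 6.15 and then at 7.12 and 7.04.

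Genes listed for developmental timing, many of which fall as tissues mature, were higher on WT arrays 3 and 4 in 5 of 9 tested members (0 lower, median 1.75). The share higher among all tested genes was 12.2%. Over all 12 members with a probe set, 5 were higher and 0 lower, and the median was 0.42. Without the filter 6.25% of all genes were higher and 0.77% lower. Whether the pairs differ in the age of the embryos was not tested. Hmga2, a chromatin protein of embryonic cells, had log2 levels of 6.52, 6.65, 9.51 and 9.40. Plagl1 and Mest, imprinted genes of embryonic growth, had 7.81, 7.79, 10.66 and 10.66, and 6.78, 6.83, 10.32 and 10.33. Igf2, the fetal growth factor, had 8.84, 8.99, 11.11 and 11.10. Lin28a and Lin28b, which block the maturation of let-7, did not pass the filter and differed by -0.45 and -0.21, and Arid3a differed by -0.72. Mest and Igf2 are also in the mesenchyme list. In an imprinted list added after the values were seen, 8 of 16 tested genes were higher and 0 lower, beside 12.2% higher among all tested genes. Its median of 0.76 became 0.41 with probe set means. Over its 27 members with a probe set, 9 were higher and 1 lower, with a median of 0.22.

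Xist, the RNA of X inactivation, had log2 levels of 7.58, 7.40, 9.29 and 9.14, a 3.30-fold difference, with Cbfb+/+ at 8.32 ± 0.028 (SD, n = 3). Eif2s3y, a Y-linked gene, was below the filter, with 5.03, 5.22, 4.70 and 4.62. Of 2 tested members of the sex list, Xist was counted as higher and the other, differing by 0.24, was not counted. The sex of the embryos in each pool is not given in the sources used here. Cbfb, the gene altered in the mutants, had 6.62, 6.57, 8.31 and 8.14 in WT, although all 4 arrays have the same labelled genotype, and 6.45 ± 0.16 (SD, n = 3) in Cbfb+/+.

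Among response genes, 6 of 20 tested genes of hypoxia and glycolysis were higher, beside 12.2% of all tested genes. The list's count was 1 after quantile normalization or centring and 2 without WT array 1. Pgam1, Ldha and Pkm, enzymes of lower glycolysis, differed by 1.66, 1.11 and 1.08, while Vegfa and Ndrg1, which respond to low oxygen, differed by -0.40 and -0.39. Of 20 immediate early and stress genes 2 were counted as higher, no larger a share than the 12.2% of all tested genes. These were Ddit4 and Hspa1a, with differences of 2.08 and 1.25, while Fos and Egr1 differed by -0.49 and -0.60. None of 9 tested p53 response genes was counted. Rsad2, an interferon-induced antiviral enzyme, was lower with 11.41, 11.43, 10.34 and 10.35, and Ifitm1 was higher with 7.21, 7.02, 8.36 and 8.50.

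The largest differences upward, besides Cdh11 and Nnat, came from genes of no blood list. Sbk1, a kinase of developing brain, had log2 levels of 3.18, 3.07, 7.78 and 7.82, also from levels under the array median. Gja1, the gap junction protein connexin 43, had 4.03, 5.02, 8.08 and 7.96, and Myh10, a non-muscle myosin heavy chain, had 5.65 and 5.81 on arrays 1 and 2 and a mean of 8.96 on arrays 3 and 4. Pcbp4 had 3.86, 4.02, 7.71 and 7.57, and Tshz1 had 3.08, 3.62, 6.63 and 6.79. On arrays 1 and 2 each of these 5 genes was below 6.

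**Figure D4:**
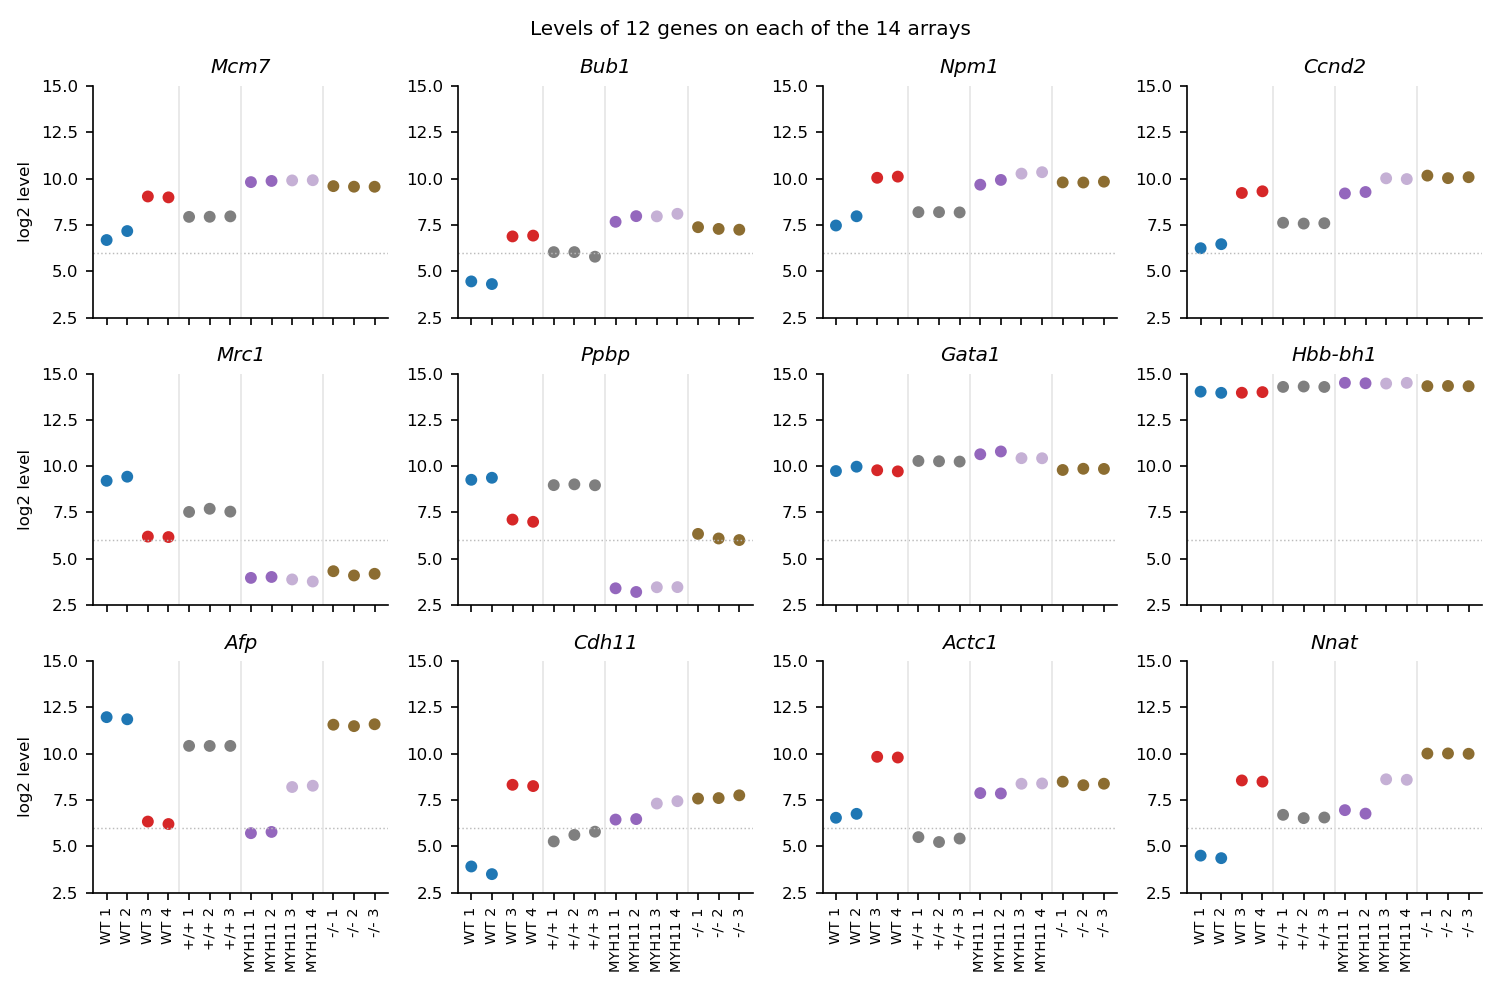
Log2 levels of 12 genes (vertical axes, 2.5 to 15) on the 14 arrays, with the colours of the list plot and a dotted line at 6. Mrc1, Ppbp and Afp are higher on WT arrays 1 and 2 than on 3 and 4 (Afp 11.97 and 11.86 against 6.33 and 6.20), Mcm7, Bub1, Npm1, Ccnd2, Cdh11, Actc1 and Nnat are higher on arrays 3 and 4, and Gata1 and Hbb-bh1 are nearly level.

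The wild types of the other cross were set beside the pairs. For 618 of the 900 higher genes (68.7%) the mean of the 3 Cbfb+/+ arrays was nearer to WT arrays 1 and 2, and for 52 of the 78 lower genes (66.7%). All 3 Cbfb+/+ arrays lay between the pairs for 511 of the higher and 50 of the lower genes. These genes were picked for lying far apart in WT, which by itself favours values of another group between the pairs. The same shares over all tested genes were not computed, so no conclusion is drawn from these counts. Because the pairs were formed from WT values, the counts below describe where each pair lies, and no p-value is given for its genes. They also share the Cbfb+/+ arrays with each other.

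Against Cbfb+/+, WT arrays 1 and 2 had 437 higher genes (5.91%) and 1052 lower (14.2%). The rule for these counts was a difference of 1.5-fold or more with an adjusted p below 0.05 in limma. Because the pairs were formed from the same WT values, this p cannot test a difference and served only as a cutoff. It rests on the spread between arrays of a set, which may be technical. The counts by this rule are therefore a description. Mitosis genes were lower in 29 of 40 and higher in 0 (median -0.95), replication genes lower in 14 of 33 and higher in 0, and ribosome biogenesis genes lower in 10 of 24. Aurkb differed by -1.93 on the log2 scale. Liver genes were higher in 9 of 12 and lower in 1, macrophage genes higher in 6 of 21 and lower in 1, and platelet genes higher in 5 of 21. Mrc1 differed by 1.73, Ppbp by 0.33 and Pf4 by 0.19, and the differences of Ppbp and Pf4 did not meet the rule.

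By the same cutoff against the same Cbfb+/+ arrays, WT arrays 3 and 4 had 1454 higher genes (19.7%) and 514 lower (6.95%). The lower count was 903 after quantile normalization and 891 with centred arrays. Macrophage genes were lower in 18 of 21 and platelet genes in 17 of 21, with medians of -1.33 and -0.97. Ppbp differed by -1.93. Replication genes were higher in 22 of 33, with a median of 0.72, but mitosis genes higher in 7 of 40 and lower in 2, with a median of 0.065. Mesenchyme genes were higher in 20 of 29 and neural genes in 10 of 17. Actc1 differed by 4.43. Read side by side, the mitosis genes of Cbfb+/+ lie nearer to WT arrays 3 and 4, and its platelet genes nearer to WT arrays 1 and 2, so the other cross does not match either pair throughout.

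The Cbfb+/MYH11 littermates carry the same array numbers, and their values were not used to form the WT pairs, though results of these arrays were known when the comparison was chosen. Whether numbers correspond between genotypes is not given in the sources used here. With Cbfb+/MYH11 arrays 3 and 4 against 1 and 2, limma called 575 genes higher (7.78%) and 89 lower (1.2%), and 327 and 154 after quantile normalization. The p-values are adjusted by Benjamini and Hochberg over the 7392 genes and measure only the spread between arrays within a set. The median difference was 0.079. Across the 7392 genes, which are not independent replicates, the differences in WT and in Cbfb+/MYH11 correlated with r = 0.531, given as a description.

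Neural genes rose most in that comparison, in 15 of 17 tested members, with 0 falling and a median of 1.76. Members could pass the filter through the very arrays on which they are high, so this count and median lean upward. Over all 32 members with a probe set, the list's median levels were 4.62, 4.68, 6.14 and 6.19 on Cbfb+/MYH11 arrays 1 to 4. Sox2 had log2 levels of 3.53, 3.24, 6.40 and 6.63 on Cbfb+/MYH11 arrays 1 to 4, a rise of 3.13 ± 0.27 (SE; limma, adjusted p = 6.74e-06), where the WT levels above stayed near 3. Mesenchyme genes rose in 16 of 29 (0 fell, median 0.89). Col1a1 had 6.04, 6.31, 7.53 and 7.47, a rise of 1.32 ± 0.13 (SE; limma, adjusted p = 2.34e-05). Genes of hypoxia and glycolysis rose in 11 of 20, with a median of 0.60.

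Replication, mitosis, macrophage and platelet lists did not show the WT pattern in Cbfb+/MYH11. Among replication genes 1 rose and 1 fell (median 0.076), and among mitosis genes 0 rose and 0 fell (median -0.100), beside 7.78% and 1.2% of all genes. Bub1 had log2 levels of 7.67, 7.97, 7.96 and 8.10, all above those of WT, and its difference was 0.21 with a 95% interval of -0.045 to 0.47. Macrophage genes rose in 4 of 21 and platelet genes in 3 of 21, with 0 falling in either. Over all members with a probe set, Cbfb+/MYH11 arrays 1 and 2 had median levels of 4.95 and 4.69 for the macrophage list. For the platelet list they had 5.13 and 5.07. A fall like that in WT thus had little room to show, and its absence says little. Mrc1 was near the lower end on all 4 arrays, with 3.97, 4.01, 3.88 and 3.77, and Ppbp with 3.40, 3.20, 3.46 and 3.47, near the lowest levels on the arrays. Red cell lists had small negative medians in both groups. Red cell membrane genes fell in 3 of 19, with a median of -0.42, beside -0.23 in WT. The medians in Cbfb+/MYH11 and WT were -0.22 and -0.23 for late erythroid genes and -0.17 and -0.17 for erythroid regulators. For heme and iron they were -0.24 and -0.10.

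Liver genes differed in the opposite direction in Cbfb+/MYH11, where 6 of 12 rose and 0 fell (median 0.61). Afp had log2 levels of 5.71, 5.77, 8.20 and 8.27, a rise of 2.49 ± 0.081 (SE; limma, adjusted p = 2.11e-09), against the difference of -5.65 in WT. Ttr had 6.71, 6.39, 8.90 and 8.93, a rise of 2.36 ± 0.12 (SE; limma, adjusted p = 1.49e-07), against -2.23 in WT. At 2-fold with no overlap, 81 genes were higher on arrays 3 and 4 of both groups and 5 lower in both, of 136 and 8 such genes in Cbfb+/MYH11. The 81 are 9% of the 900 genes higher in WT and 59.6% of the 136.

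**Figure D5:**
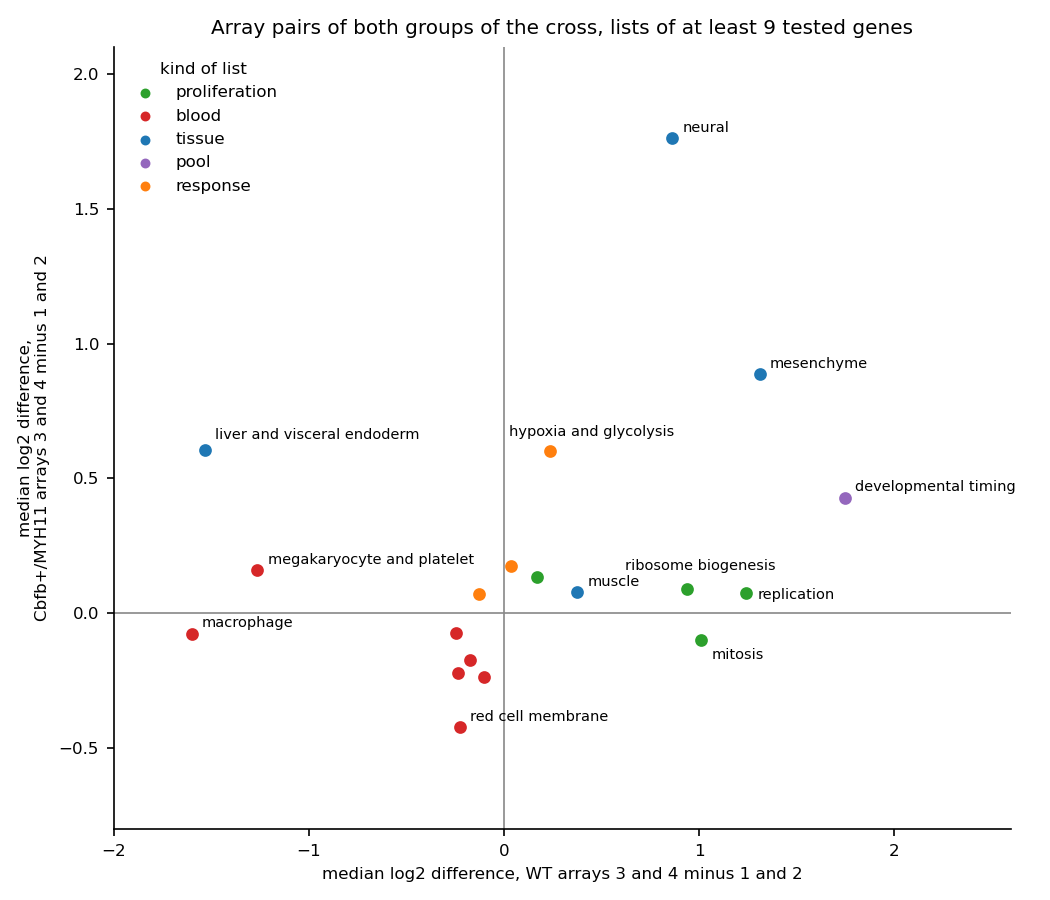
Median log2 difference of arrays 3 and 4 minus arrays 1 and 2 in WT (horizontal axis) and in Cbfb+/MYH11 (vertical axis), with 1 point per list of at least 9 tested genes and colours for the kind of list. Neural and mesenchyme lists lie to the upper right, replication and mitosis lie at 1.24 and 1.01 in WT and near 0 in Cbfb+/MYH11, and the liver list lies at -1.53 and 0.61.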

How the data were processed

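The authors deposited log2 values made with RMA in Affymetrix Expression Console, per the submitters' processing notes, from total RNA of E12.5 blood labelled by the one-cycle protocol, per the labels' protocols. Versions are not given in the sources used here. RMA normalizes all arrays together, which assumes similar overall distributions. All 14 arrays and 45101 probe sets entered without further scaling, and 0 columns belonged to other series. Array medians lay between 4.27 and 4.46, and 31.0 to 35.9% of genes reached a log2 level of 6. Precision is limited by how few arrays there are.

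Of the probe sets, 34945 have 1 gene symbol in the platform annotation, 932 several, 9160 none and 64 are controls. RefSeq (GRCm38.p6) held 34741 and changed 0 symbols. Each of 18193 genes took its probe set with the highest mean, and 7392 genes at log2 6 or above on at least 3 arrays were kept.

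WT pairs were described by pair means, counting differences of at least 2-fold without overlap. Against Cbfb+/+, each WT pair was counted by the limma rule below, used as a cutoff and not as a test. Other comparisons used limma 3.58.1 (R 4.3.3; linear models with moderated variances) on 14 arrays in 6 sets without covariates (residual df 8, prior df 4.65), called at an adjusted p under 0.05 and 1.5-fold. The script was tested on simulated data. Members and lists were chosen with earlier results of these data known, and the imprinted and heart lists after the values were seen. Named genes are the 12 largest differences each way, up to 3 each way per list, and a fixed set; of 79 so named, 76 were tested. Other genes are named as examples from their list, as the only members of a small count, or as those nearest its ends, chosen after their values were seen. Promoters are RefSeq windows of 250 bases, matched by symbol for 6053 of the 7392 tested genes. Alternatives were other normalizations, filters, fold floors, probe set means, a replicate block, an intensity trend and leaving out arrays.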

Additional observations from a re-analysis of the deposited data

Results flagged for a closer look

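The same array numbers gave opposite differences in the 2 groups of the first cross, with arrays 3 and 4 all below arrays 1 and 2 in WT and all above them in Cbfb+/MYH11, or the reverse; the difference between the groups was not tested for any of them. Afp differed by -5.65 in WT and 2.49 in Cbfb+/MYH11 on the log2 scale. Ttr differed by -2.23 and 2.36, and Alb by -1.33 and 1.46. Apoe, an apolipoprotein made by liver and macrophages, differed by -1.88 and 1.24, and Maf, a transcription factor of macrophages, by -1.64 and 1.08. Cbfb ran the other way, at 1.63 in WT and -1.52 in Cbfb+/MYH11. The median of the liver and visceral endoderm list was -1.53 in WT and 0.61 in Cbfb+/MYH11.

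Thbs1 on Cbfb+/MYH11 array 1 stood apart from the other arrays of its group, with a log2 level of 4.48 against a median of 4.91 for the others. Chance gives about 1 such array in 20 groups when the arrays of a group share 1 distribution, and 152 groups were examined, 2 for each of 76 tested genes. Many of these genes were named because the WT arrays split by pair, so that rate does not hold for the WT groups.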

How the results depend on the processing

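For the WT pairs, the count of 900 higher genes became 587 with centred arrays, 554 with probe set means, 1801 at 1.5-fold and 148 at 4-fold, and 803 to 1049 when 1 WT array was left out. The count of 78 lower genes became 132 with quantile normalization, 143 with centred arrays, 140 with no filter, 43 with the filter at 7, 37 with the filter on the mean, 280 at 1.5-fold and 18 at 4-fold, and 71 to 92 without an array. The median difference of 0.13 became -0.042, -0.098, -0.11, 0.18 and 0.084 with quantile normalization, centring, no filter, the filter at 7 and probe set means, and 0.086 to 0.19 without an array. For Cbfb+/MYH11 pairs, 575 higher genes became 327, 367, 876 and 339 (quantile, centred, no filter, filter at 7), and 89 lower became 154, 217, 187, 59 and, with probe set means, 53. Against Cbfb+/+, the 437 higher in WT arrays 1 and 2 became 775 with no filter and 249 with probe set means. The 1454 higher in WT arrays 3 and 4 became 883 with the filter at 7 and 953 with probe set means, and the 514 lower became 903, 891, 972 and 335. Signs turned for the cartilage and bone list (-0.11 with no filter) and for Hbb-b2 against Cbfb+/+ in WT arrays 3 and 4 (-0.023 with probe set means, beside 0.69). Small differences turned too: with quantile normalization or centring, the medians of the G1, endothelium, heart and immediate early lists (the last from 0.037 to -0.13 and -0.19), and Mpo; with centring, the embryonic globin list (0.0088 to -0.22) and Hbb-y; with quantile normalization, Hbb-bh1; with probe set means, Hbb-b2 and Csf2rb between the WT pairs (-0.061 and 0.17). With another filter the medians of the adult globin, sex, immediate early, mast cell and trophoblast lists turned, and without WT array 1 those of the heart and immediate early lists. Leaving out an array also turned Hbb-bh1, Gata1 and Mpo, all within 0.11 of 0. The cause was not tested for any of these. Groups share only a number: with the replicate number as a block the limma counts were 427 and 76, 443 and 1081, and 1473 and 517. The intensity trend and leaving out an array changed no limma count over 1.5 times.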

Other observations

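Some genes reached a log2 level of 6 on both arrays of 1 WT pair and on none of the other 12 arrays: 44 genes on WT arrays 3 and 4, and 72 on WT arrays 1 and 2. Such genes could not pass the filter of the report, and they were chosen after their values were seen. Many lay close to 6 on both pairs. The differences ranged from 0.081 to 3.17 for the 44 genes and from -0.13 to -2.03 for the 72. The counts therefore do not show which pair has more distinct genes, and the genes named below are among those with larger differences. Meis1, a homeobox factor of blood stem cells and of several organs, had 3.05, 2.98, 6.23 and 6.14 on WT arrays 1 to 4. Foxp2, a factor of brain and other organs, had 5.02, 5.03, 6.94 and 6.87, and Nrp1, a receptor of nerves and vessels, had 5.33, 5.44, 6.76 and 6.82. On the other pair, Ms4a7, a macrophage membrane protein, had 6.44, 6.55, 4.47 and 4.52, and Cd53, a tetraspanin of white cells, had 6.28, 6.24, 4.47 and 4.71. Adgre1, the F4/80 antigen of macrophages, had 6.05, 6.20, 5.02 and 5.05.

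Gm3715 had 5.88, 6.56, 3.87 and 3.83 in WT and 6.82, 6.98, 3.44 and 3.56 in Cbfb+/MYH11, so that arrays 1 and 2 stood above arrays 3 and 4 in both groups.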
